A study of Homo sapiens with 6 samples.

Results

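The genes described here are 10 members of the EGF receptor system and its near neighbour MET, read by their symbols from a table of 63563 genes. They are the receptors EGFR, ERBB2, ERBB3 and MET, the ligands AREG, EREG, HBEGF, TGFA and NRG1, and the receptor inhibitor ERRFI1. All were measured in RKO, an established human colorectal carcinoma line, as RNA-seq of poly(A) RNA. Both groups were RKO cells stably carrying the expression vector pCDNA3.1 and grown in medium with 10% fetal bovine serum. In the 3 libraries of the control group, EV, the vector was empty, and in the 3 libraries of the group OVER43 it carried the cDNA of Cx43, the gap junction protein encoded by GJA1. The labels give neither whether a line was 1 clone or a pool nor whether the replicates were separate cultures, so the p-values measure the spread between these libraries, which may be technical. Libraries are named by their column numbers, 0 to 2, in the deposited tables.

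EGFR, ERBB2 and ERBB3 are receptor tyrosine kinases of one family that signal as dimers. HBEGF, AREG, EREG and TGFA are made as membrane-bound precursors, released by metalloproteases, and bind EGFR, while NRG1 binds ERBB3 and ERBB4. ERBB2 has no known ligand of its own and ERBB3 has a weak kinase, so the pair signals best together. MET is the receptor of HGF, and ERRFI1 (also called MIG6) binds the kinase domains of EGFR family receptors, blocks them and is itself induced by their signalling.

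Of the 10 members, 6 were expressed at 1 FPKM or more in at least 3 libraries and were tested, and 4 (AREG, EREG, TGFA and NRG1) were not. FPKM are fragments per kilobase of transcript scaled to the library's size, a level per length, so that genes can be set side by side. HBEGF, ERBB3 and ERRFI1 were lower in OVER43, and EGFR, ERBB2 and MET did not pass the test. The test was limma on log2(FPKM + 1) over all 12205 genes at that level, with a Benjamini-Hochberg adjusted p under 0.05, and fold changes below are on that scale, OVER43 minus EV. The share of all tested genes called was 45.9%, that of genes called higher in OVER43 was 28.4% and that of genes called lower was 17.5%. The 3 calls among 6 members are thus near the share for either direction. All 3 were lower, which is above the share called lower, and with 6 genes that difference was not tested. In the same 3 members the 2 groups of libraries did not overlap, as in 56.3% of all tested genes (33.9% with OVER43 above and 22.4% with OVER43 below EV). The median fold change of the 6 tested members was -0.31, beside 0.05 over all tested genes.

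GJA1 itself stood at 24.7 ± 1.44 FPKM (SD, n = 3) in OVER43 and 0.348 ± 0.0469 in EV, higher in every OVER43 library. The step of the lowest values put the libraries at about 42.5 to 52.1 M fragments each, a size after the scaling between libraries. Of 10 markers of colon epithelium, 4 were tested, and EPCAM, KRT8 and KRT18 were well expressed in every library. KRT8 was lower in OVER43 while KRT18 and EPCAM were higher. CDX2, the other tested marker, was at 6.21 ± 0.776 FPKM in OVER43 and 7.78 ± 1.18 in EV and was not called (limma adjusted p = 0.0838). KRT19, at a mean of 0.613 FPKM in OVER43 and 0.618 in EV, and CDH1, at 0.258 and 0.231, were too low to be tested. KRT20, VIL1, CDX1 and CDH17 were under 0.1 FPKM throughout. The leukocyte genes PTPRC, CD3E and MS4A1 were listed at 0 in all 6 libraries, while CD68, a lysosomal protein of macrophages, was at 376 ± 9.38 FPKM in OVER43 and 413 ± 8.11 in EV, at a locus of 15 annotated genes, and was called lower (fold change -0.13, limma adjusted p = 0.00654). The summed level of 5 fibroblast markers was 0.185 to 0.379 FPKM in OVER43 and 0.338 to 0.895 in EV, and that of 4 endothelial markers was 0.259 to 0.432 and 0.112 to 0.175. The part of such traces in the results was not tested.

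The stretch just upstream of a gene is where its core promoter lies. RefSeq's GRCh38.p14 windows of 250 bases before the annotated start were read for 8 members. A set of 4 is printed to set HBEGF and ERRFI1, which with ERBB3 (no window printed) were lower in OVER43, beside a ligand that was barely detected (AREG) and the receptor of highest level (MET). The windows are chr5:140346604-140346853, minus strand, for HBEGF, chr1:8026310-8026559, minus strand, for ERRFI1, chr4:74444886-74445135, plus strand, for AREG and chr7:116671946-116672195, plus strand, for MET. Each is written 5′ to 3′ along the gene, and capitals mark matches, on either strand, to 6 motifs: the GC box GGGCGG, the AP-1 site TGANTCA, the cyclic AMP response element TGACGTCA, the ETS site CCGGAAG, the TATA box TATAAA and the E-box CACGTG.
HBEGF: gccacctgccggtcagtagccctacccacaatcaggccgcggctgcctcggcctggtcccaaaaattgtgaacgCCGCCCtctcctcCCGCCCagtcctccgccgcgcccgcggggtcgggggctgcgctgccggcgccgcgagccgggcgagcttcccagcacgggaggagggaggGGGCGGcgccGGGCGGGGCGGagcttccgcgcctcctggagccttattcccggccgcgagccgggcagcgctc
ERRFI1: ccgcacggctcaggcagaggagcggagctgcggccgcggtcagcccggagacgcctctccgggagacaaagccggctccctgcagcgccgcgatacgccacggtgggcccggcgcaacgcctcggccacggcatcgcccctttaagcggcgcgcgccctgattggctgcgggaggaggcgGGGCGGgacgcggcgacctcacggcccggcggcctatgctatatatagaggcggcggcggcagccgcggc
AREG: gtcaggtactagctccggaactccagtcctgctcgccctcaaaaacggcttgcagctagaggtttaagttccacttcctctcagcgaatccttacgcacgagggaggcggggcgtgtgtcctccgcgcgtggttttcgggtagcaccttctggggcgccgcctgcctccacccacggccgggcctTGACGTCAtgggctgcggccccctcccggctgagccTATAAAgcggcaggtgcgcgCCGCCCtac
MET: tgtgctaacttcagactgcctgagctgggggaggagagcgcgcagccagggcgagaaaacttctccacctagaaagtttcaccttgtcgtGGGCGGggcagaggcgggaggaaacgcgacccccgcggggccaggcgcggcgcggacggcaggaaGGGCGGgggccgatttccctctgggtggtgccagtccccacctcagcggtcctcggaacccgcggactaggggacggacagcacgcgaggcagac
HBEGF held 5 GC boxes, which begin 176, 163, 73, 63 and 58 bases before the start, the last pair overlapping by 1 base. ERRFI1 held 1 GC box and MET held 2. AREG held a cyclic AMP response element 65 bases, a TATA box 29 bases and a GC box 9 bases before the start. Of all 35116 RefSeq windows of this length, 42.6% held a GC box, 6.57% an AP-1 site, 1.65% a cyclic AMP response element, 8.52% an ETS site, 10.7% a TATA box and 6.35% an E-box. Among the other windows read, EREG held a TATA box 32 bases before the start, TGFA held 3 GC boxes, EGFR held 2 GC boxes, and ERBB2 held 1 AP-1 site and 2 ETS sites. A match describes letters and is no evidence of a bound factor.

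HBEGF (heparin-binding EGF-like growth factor, ENSG00000113070.6, chromosome 5, 139712428 to 139726216, hg19 as deposited) was the only ligand among the members measured at 1 FPKM or more. It was also the member with the largest change. Its level was 5.91, 4.58 and 5.08 FPKM in the OVER43 libraries 0, 1 and 2, and 14.5, 12.4 and 12.5 FPKM in the EV libraries. Every OVER43 library was thus below every EV library, with no overlap. Mean levels were 5.19 ± 0.669 and 13.1 ± 1.15 FPKM (SD, n = 3 each), 2.53 times higher in EV. The fold change was -1.19 (SE 0.0987, 95% interval -1.42 to -0.97, limma adjusted p = 5.78e-05). Only 105 tested genes, 0.860% of all, had a lower value. In bulk RNA, fewer cells that express a gene and less RNA per cell cannot be told apart. The authors' deposited table gave HBEGF a q-value of 0.000547. Tested genes within 5 Mb of HBEGF, 59 in all, had a median fold change of 0.09, with 20 called higher and 8 lower.

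The other ligands among the members were near 0 in both groups. All spliced entries of AREG (amphiregulin), EREG (epiregulin) and TGFA (transforming growth factor alpha) were listed at 0 in the 6 libraries. What fragments there were fell on the entry that spans the whole gene with its introns. For AREG these came to 0 in each OVER43 library and 0, 1 and 4 in the EV libraries. For EREG there was 1 fragment, in OVER43 library 2, and for TGFA there were 3 over all libraries, never more than 1 in any. No difference between the groups was detectable at this depth. For AREG, whose locus is small, a count of 0 in an OVER43 library still allows up to 3 fragments, or 0.00617 to 0.00652 FPKM over the whole locus, by counting error alone. Older assemblies carry a near-identical copy beside AREG, so fragments of AREG may have been split or dropped, which was not tested. NRG1 (neuregulin 1, a long gene on chromosome 8 whose locus holds 6 annotated genes in the table) had 2, 10 and 2 whole-gene fragments in OVER43 and 0, 6 and 7 in EV, and its gene level never passed 0.0153 FPKM.

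Counted over the 11 genes of the EGF ligand family (the 5 members with EGF, BTC, EPGN, NRG2, NRG3 and NRG4), HBEGF made up most of the measured ligand RNA in every library. AREG enters this count at or near 0. If its fragments were split or dropped, which was not tested, the shares of HBEGF are too high. The share of HBEGF in the summed FPKM was 79.5, 75.8 and 75.9% in OVER43 libraries 0, 1 and 2, and 90.0, 91.7 and 89.8% in the EV libraries. All OVER43 shares were below all EV shares. The next gene, NRG4 (an ERBB4 ligand), had nearly the same mean in both groups. NRG4 was measured at 1.17 ± 0.0841 FPKM in OVER43 and 1.13 ± 0.357 in EV (limma adjusted p = 0.854, 95% interval of the fold change -0.31 to 0.38). The summed ligand level was 6.05 to 7.43 FPKM in OVER43 and 13.6 to 16.1 in EV.

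**Figure D1:**
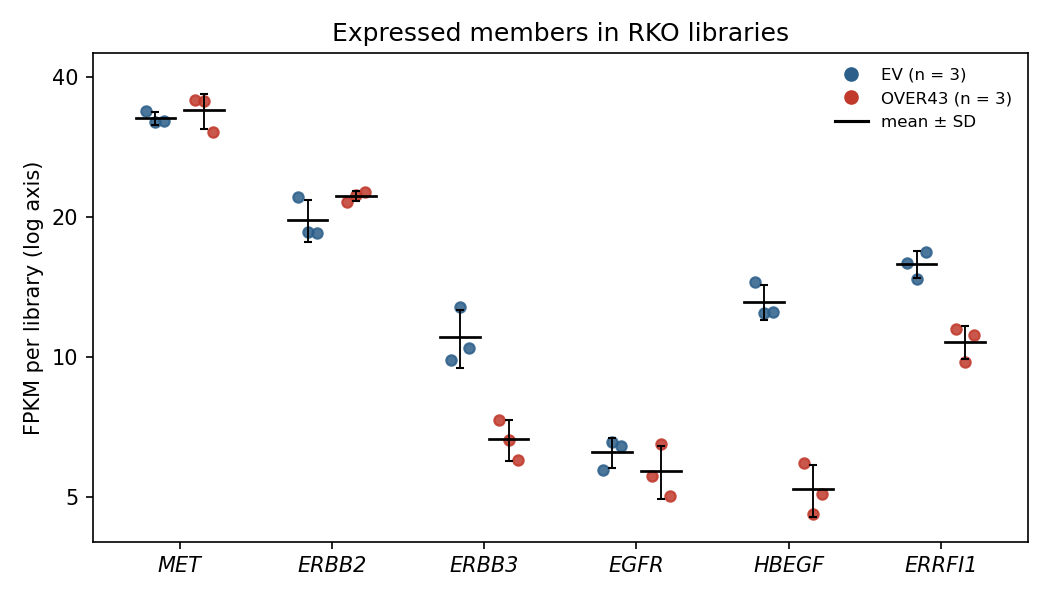
FPKM of the 6 expressed members on a log axis, 1 point per library, EV in blue and OVER43 in red, with bars for the mean and SD of 3 libraries. HBEGF at 4.58 to 5.91 FPKM, ERBB3 at 5.99 to 7.31 and ERRFI1 at 9.75 to 11.4 in OVER43 lie below all their EV libraries, while the groups overlap for MET, ERBB2 and EGFR.

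Among the receptors, the order of levels was the same in each of the 6 libraries: MET, then ERBB2, then ERBB3, then EGFR. ERBB3 and EGFR came within their spread of each other in OVER43, where library 1 held 6.63 FPKM of ERBB3 and 6.51 of EGFR. MET exceeded EGFR 5.46 to 6.41 times in the OVER43 libraries and 4.88 to 5.93 times in the EV libraries. The ratio of ERBB2 to ERBB3 was 2.94 to 3.77 in OVER43 and 1.45 to 2.25 in EV, ranges that did not overlap. The ratio of HBEGF to EGFR was 0.704 to 1.06 in OVER43 and 1.90 to 2.54 in EV. In the EV cells, then, the ligand's RNA was above that of its receptor in every library, and in OVER43 it was below it or just above it.

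ERBB3 (ENSG00000065361.10, chromosome 12, 56473641 to 56507691, hg19), the receptor that binds neuregulins and recruits PI3 kinase, was the 1 receptor of the 4 that was called. Its level was 7.31, 6.63 and 5.99 FPKM in OVER43 libraries 0 to 2 and 9.83, 12.8 and 10.4 FPKM in EV. All OVER43 libraries were below all EV libraries, and the EV libraries were the more spread. Means were 6.64 ± 0.662 and 11 ± 1.58 FPKM (SD, n = 3), 1.66 times higher in EV, and the fold change was -0.65 (SE 0.108, 95% interval -0.90 to -0.40, limma adjusted p = 0.00178). The authors' deposited table gave a q-value of 0.173, so the call rests on the test used. Neighbouring genes moved the same way: of 128 tested genes within 5 Mb, 65 were called lower and 14 higher, with a median of -0.18. The part of that regional shift in the ERBB3 value was not tested.

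ERBB2 (ENSG00000141736.9, chromosome 17, 37827375 to 37887040, hg19), the partner receptor, was not called. Its level was 21.5, 22.3 and 22.6 FPKM in OVER43 and 22.1, 18.5 and 18.5 in EV, so that EV library 0 lay among the OVER43 libraries. The fold change was 0.17 (SE 0.0740, 95% interval -0.0041 to 0.34, limma adjusted p = 0.101). That library, singled out after its values were seen, decided the call: without it the fold change was 0.25 and the limma adjusted p was 0.0127. The value also depended on the scaling. With all 6 libraries it was 0.11 with TMM scaling, 0.10 with quantile scaling and 0.029 with equal FPKM sums, none of them called. Among 125 tested genes within 5 Mb the median was 0.09, with 43 called higher and 20 lower.

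EGFR (ENSG00000146648.11, chromosome 7, 55086714 to 55324313, hg19) was the receptor of lowest level. Its level was 5.55, 6.51 and 5.03 FPKM in OVER43 and 5.71, 6.55 and 6.44 in EV. The groups overlapped, and the fold change was -0.11 (SE 0.101, 95% interval -0.35 to 0.12, limma adjusted p = 0.382). Over the 6 libraries, the tested genes whose log2(FPKM + 1) followed that of EGFR most closely were NBPF3 (Pearson r = 0.992), GUSBP18 (0.990) and LCAT (0.989), a description over libraries that share 1 processing and fall into 2 groups.

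MET (ENSG00000105976.10, chromosome 7, 116312444 to 116438440, hg19), the HGF receptor, was the receptor of highest level and the one whose groups were closest. Its level was 35.6, 35.5 and 30.5 FPKM in OVER43 and 33.8, 31.9 and 32.1 in EV. OVER43 library 2 was the lowest and the other OVER43 libraries the highest of all 6. The fold change was 0.05 (SE 0.0664, 95% interval -0.10 to 0.20, limma adjusted p = 0.573). Its sign turned to -0.0029 with TMM scaling, -0.047 with quantile scaling and -0.090 with equal FPKM sums, none of them called. The closest patterns over the 6 libraries were those of WAC (Pearson r = 0.986), FAM208B (0.982) and OTUD4 (0.978). Like the genes named for EGFR, they were picked as the highest among 12205 tested genes over only 6 libraries. Shared regulation was not tested.

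ERRFI1 (ENSG00000116285.8, chromosome 1, 8064464 to 8086368, hg19), the feedback inhibitor, was lower in OVER43, as HBEGF and ERBB3 were. Its level was 11.4, 9.75 and 11.1 FPKM in OVER43 and 15.9, 14.7 and 16.8 in EV, with no overlap. Means were 10.8 ± 0.901 and 15.8 ± 1.06 FPKM (SD, n = 3), and the fold change was -0.51 (SE 0.0786, 95% interval -0.70 to -0.33, limma adjusted p = 0.00114). The authors' deposited table gave a q-value of 0.000547. The 70 tested genes within 5 Mb had a median of 0.08, with 21 called higher and 9 lower.

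**Figure D2:**
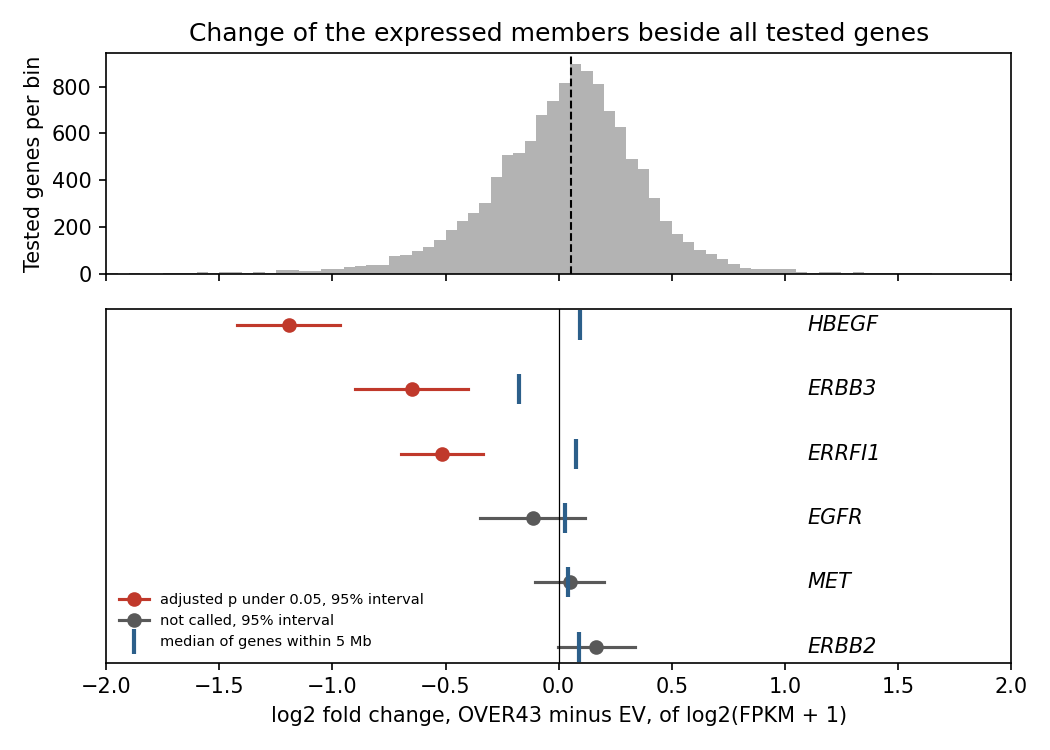
Histogram of log2 fold changes (OVER43 minus EV) of all tested genes above, with a dashed line at the median of 0.05, and below it each expressed member with its 95% interval and, as a blue tick, the median of tested genes within 5 Mb. The axis ends at 2 in both directions and leaves out 31 genes below and 13 above. The intervals of HBEGF, ERBB3 and ERRFI1 lie below 0, and the tick of ERBB3 is at -0.18.

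The transcripts called belonged to HBEGF, ERBB3 and ERRFI1. The table of isoforms held 111 spliced entries of the members, 57 of them above 0 in some library, 14 with a mean of 1 FPKM or more in a group and 13 tested. Of these, 3 were called, all lower in OVER43, where 14.5% of the 30377 transcripts tested were called, 9.83% higher and 4.69% lower. HBEGF and ERRFI1 each had 1 transcript above 1 FPKM, which carried 86.4 to 96.5% of the gene's level in every library. HBEGF-201 (ENST00000230990.6) was at 4.91 ± 0.524 FPKM in OVER43 and 12.5 ± 0.995 in EV, with a fold change of -1.19 (limma adjusted p = 0.00149). ERRFI1-201 (ENST00000377482.5) was at 9.83 ± 0.725 and 14 ± 1.16 FPKM, with a fold change of -0.47 (limma adjusted p = 0.0186). The ERRFI1-201 call was lost, with limma adjusted p of 0.0519 to 0.0635, on leaving out OVER43 library 0 or 1 or EV library 0 or 2, and with no filter on low values, at 0.0921.

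ERBB3 was carried by 3 transcripts. ERBB3-201 (ENST00000267101.3), the full-length form, was at 4.22, 4.39 and 3.98 FPKM in OVER43 and 6.34, 6.43 and 7.05 in EV. Its libraries were less spread than those of the whole gene, and its fold change was -0.55 (limma adjusted p = 0.0121). That call was lost with no filter on low values, at a limma adjusted p of 0.0523, and with the column number as a block, at 0.0666. ERBB3-202 (ENST00000411731.2), a short coding form, was at 1.13, 0.903 and 1.5 FPKM in OVER43 and 2.05, 2.22 and 2.69 in EV, with a fold change of -0.61 (limma adjusted p = 0.0656). The groups did not overlap for either form, as in 35.7% of all transcripts tested (13.6% with OVER43 below EV), but the short one missed the threshold. ERBB3-205 (ENST00000546884.1), a retained-intron form, varied from 0 to 1.85 FPKM in OVER43 and from 0.615 to 3.12 in EV with overlap between the groups (limma adjusted p = 0.780). EV library 1, the library of highest ERBB3 gene level, was also the highest for this form.

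ERBB2 had a steady gene level made of transcripts that varied greatly between libraries. A transcript with no entry in GENCODE 29, ENST00000540147.1, took 14.6, 14.7 and 16 FPKM in OVER43 and 1.32, 4.39 and 15.5 in EV. ERBB2-201 (ENST00000269571.5), a form that encodes the receptor, took 0.885, 0.000586 and 1.36 FPKM in OVER43 and 8.25, 8.20 and 0.00327 in EV. EV library 2 thus resembled the OVER43 libraries and not the other EV libraries in both. The fold changes were 1.45 (limma adjusted p = 0.220) and -1.42 (limma adjusted p = 0.377). Without EV library 2 they were 2.19 (limma adjusted p = 0.0228) and -2.49 (limma adjusted p = 0.0205). That library was singled out after its values were seen, so the latter p-values are no evidence of a difference. ERBB2-201 passed the filter only through OVER43 library 2 and EV libraries 0 and 1. It was not tested when any of these was left out. ERBB2-204 (ENST00000541774.1), which did not pass the filter, was at 0, 0.00104 and 0 FPKM in OVER43 and 7.04, 2.84 and 0.459 in EV. Such overlapping forms share most of their exons, and Cuffdiff divides fragments between them by a model, so the split is less certain than the gene level. ERBB2-206 (ENST00000578373.1), annotated as a target of nonsense-mediated decay, was at 1.15 to 1.73 FPKM in OVER43 and 0.180 to 0.868 in EV (fold change 0.72, limma adjusted p = 0.104). It passed the filter only through the OVER43 libraries, being under 1 FPKM in all of EV. For that reason it was not tested when an OVER43 library was left out. ERBB2-210 (ENST00000580074.1), a short form, was at 1.53 to 2.04 and 0 to 2.61 FPKM (limma adjusted p = 0.509).

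**Figure D3:**
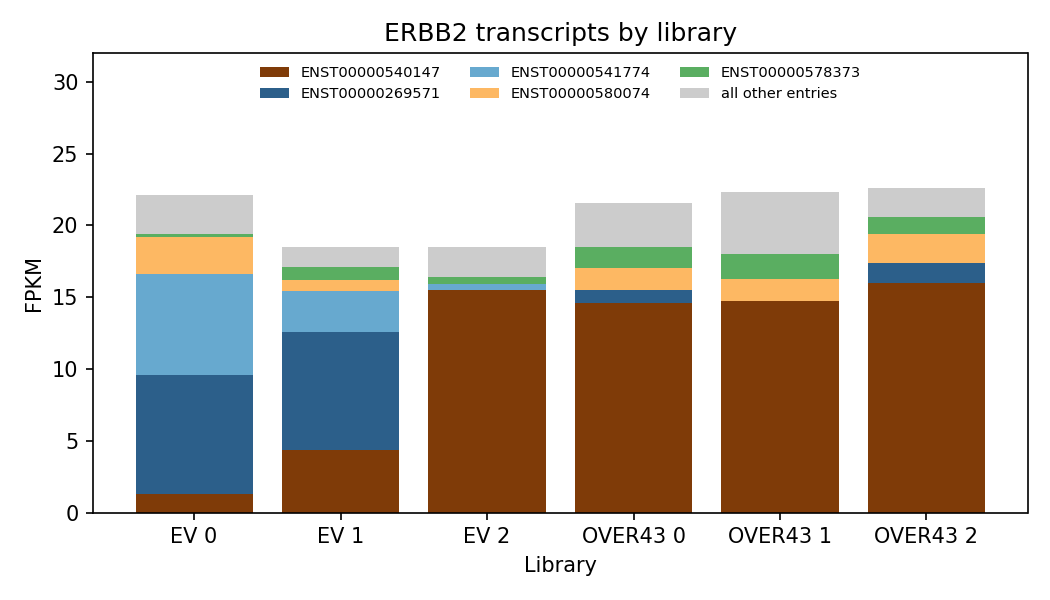
FPKM of ERBB2 in each library, stacked by transcript, with the grey part for all other entries. The total stays between 18.5 and 22.6 FPKM, while ENST00000540147 takes 14.6 FPKM or more in the OVER43 libraries and in EV library 2 and 4.39 or less in the other EV libraries.

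EGFR and MET were each carried mainly by 1 transcript. EGFR-201 (ENST00000275493.2), the full-length receptor, was at 4.87, 4.80 and 4.72 FPKM in OVER43 and 5.67, 5.64 and 5.55 in EV. Its groups did not overlap and were tight, but the fold change of -0.19 was not called (95% interval -0.38 to 0.00032, limma adjusted p = 0.172). MET-202 (ENST00000397752.3) made up 80.1 to 87.7% of the gene and was at 28.1 ± 1.19 FPKM in OVER43 and 27.3 ± 0.902 in EV (limma adjusted p = 0.675). Of the short coding forms, MET-206 (ENST00000456159.1) was at 3.22 ± 0.663 and 3.58 ± 0.574 FPKM (limma adjusted p = 0.695). MET-203 (ENST00000422097.1) was at 2.44, 2.60 and 0.852 FPKM in OVER43 and 1.15, 0.394 and 0 in EV (fold change 0.98, limma adjusted p = 0.165).

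The table also lists, for most genes, an entry that spans the whole gene with its introns, here a stand-in for unspliced RNA. Exon fragments and genomic DNA can add to it, and their part was not tested. On these entries HBEGF and ERBB3 were again lower in OVER43, and no other member was called. HBEGF was at 0.0823, 0.106 and 0.115 FPKM in OVER43 and 0.278, 0.367 and 0.330 in EV, 3.21 times higher in EV. Its fold change on log2(FPKM + 0.01) was -1.59 (SE 0.160, 95% interval -1.99 to -1.19, limma adjusted p = 0.00652). ERBB3 was at 0.0226, 0.0230 and 0.0174 FPKM in OVER43 and 0.0631, 0.0469 and 0.0655 in EV, with a fold change of -1.14 (limma adjusted p = 0.0142). Neither gene's groups overlapped. Leaving out EV library 0 or 2 ended the ERBB3 call, with a limma adjusted p of 0.0578 and 0.0542, and the locus is shared with other genes. Over all 14792 whole-gene entries tested, 15.9% were called, 3.02% higher and 12.9% lower. With the column number as a block neither entry was called, at a limma adjusted p of 0.0504 for HBEGF and 0.0794 for ERBB3.

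The whole-gene entries of the other expressed members did not pass the test. ERRFI1 was at 0.256, 0.248 and 0.232 FPKM in OVER43 and 0.313, 0.308 and 0.409 in EV (fold change -0.46, limma adjusted p = 0.0667). EGFR was at 0.0256, 0.0276 and 0.0250 FPKM in OVER43 and 0.0372, 0.0367 and 0.0354 in EV (fold change -0.37, limma adjusted p = 0.0678). In both genes all OVER43 libraries were below all EV libraries, as in 31.6% of all whole-gene entries tested (40.9% did not overlap in either direction). The same held for MET, at 0.103, 0.102 and 0.104 FPKM in OVER43 and 0.125, 0.112 and 0.133 in EV (fold change -0.24, limma adjusted p = 0.120). The size of these values depended on the processing. Over the alternative settings the fold change ran from -0.53 to -0.29 for ERRFI1, -0.47 to -0.11 for EGFR and -0.30 to -0.061 for MET, never called. ERBB2 was at 0.0714 to 0.0804 FPKM in OVER43 and 0.0632 to 0.0878 in EV (limma adjusted p = 0.819). The entries rest on 600.0 to 822 fragments per library for MET, 277 to 460 for EGFR, 237 to 420 for ERRFI1 and 190 to 236 for ERBB2, and on fewer for the pair that was called, 27.5 to 112 for ERBB3 and 55.9 to 215 for HBEGF.

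**Figure D4:**
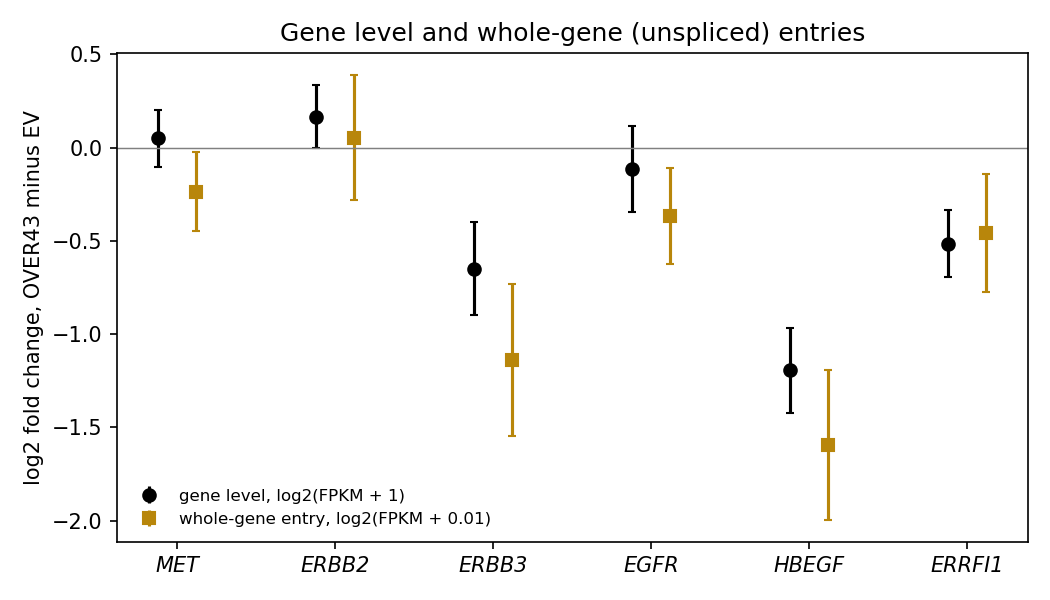
Log2 fold change, OVER43 minus EV, with 95% intervals, of the 6 expressed members at the gene level (black circles, log2(FPKM + 1)) and of their whole-gene entries (ochre squares, log2(FPKM + 0.01)). Both values are lowest for HBEGF, -1.19 and -1.59, and both are near 0 for ERBB2. The scales differ in their added constant, so the lengths of the 2 bars of a gene are not directly comparable.

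Partners of the members were read from 4 lists of textbook roles, 75 genes with 74 in the table and 57 tested. Of these, 12 were higher in OVER43, 16 were lower and 29 were not called, with a median fold change of -0.02. Over all tested genes 28.4% were called higher and 17.5% lower, so higher calls were fewer and lower calls more than those shares would give. The split of calls depends on the scaling between libraries: the higher part of all called genes was 61.8% as deposited, 52.2% with TMM, 51.2% with quantile scaling and 34.4% with equal FPKM sums, when 26 of the partner genes were lower.

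Among other receptors and ligands (11 genes, 10 in the table, 3 tested), 2 were lower and none was higher, with a median of -0.30. HGF, the ligand of MET, was the most abundant gene of that list. Its level was 93.8, 94.1 and 96.9 FPKM in OVER43 and 124.8, 119.9 and 120.1 in EV, with no overlap and a fold change of -0.35 (SE 0.0331, limma adjusted p = 0.000100). RKO cells of both groups thus held the RNA of both MET and its ligand. MST1R, the receptor related to MET, was at 6.77 ± 0.641 FPKM in OVER43 and 8.55 ± 0.745 in EV (fold change -0.30, limma adjusted p = 0.0287). Its call was lost, with limma adjusted p of 0.0611 to 0.0898, on leaving out OVER43 library 0 or 2 or EV library 0 or 1. ERBB4, NRG2 and NRG3 were under 0.1 FPKM in every library.

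The HGF transcripts did not all move together. HGF-201 (ENST00000222390.5), the longest coding form, was at 15.1, 15.7 and 14.7 FPKM in OVER43 and 20.4, 21.1 and 21.4 in EV (fold change -0.44, limma adjusted p = 0.00354). HGF-205 (ENST00000423064.2) was at 8.91 ± 0.546 and 15.3 ± 1.32 FPKM (fold change -0.71, limma adjusted p = 0.00414), and HGF-208 (ENST00000453411.1) at 21.0 ± 0.319 and 28.1 ± 3.10 FPKM (fold change -0.40, limma adjusted p = 0.0258). The most abundant short coding form, HGF-206 (ENST00000444829.2), was at 29.7 ± 2.40 and 28.5 ± 0.372 FPKM and was not called (limma adjusted p = 0.611). The whole-gene entry of HGF was at 1.48, 1.44 and 1.39 FPKM in OVER43 and 1.3, 1.29 and 1.35 in EV, with a fold change of 0.13 (limma adjusted p = 0.157). That sign is opposite to the gene level, and with TMM scaling the entry was called higher, at 0.30 (limma adjusted p = 0.0273).

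Of 14 genes for proteases that release EGFR ligands and factors that activate HGF, 8 were tested, 1 was higher and 2 were lower, with a median of -0.10. Over all tested genes 45.9% were called, a share near that of this list. ADAM9, a metalloprotease, was higher at 48.4 ± 0.744 FPKM in OVER43 against 35.6 ± 0.719 in EV (fold change 0.43, limma adjusted p = 8.41e-05). ADAM15, another, was lower at 36.5 ± 1.58 against 53.8 ± 0.729 FPKM (fold change -0.55, limma adjusted p = 5.27e-05). RHBDF2 (iRhom2), which brings the main ligand sheddase ADAM17 to the cell surface, was lower at 4.74 ± 0.577 against 6.46 ± 0.117 FPKM (fold change -0.38, limma adjusted p = 0.00922). ADAM17 itself was at 13.8 ± 0.208 and 15.0 ± 0.135 FPKM and was not called (limma adjusted p = 0.0988). ADAM19, a metalloprotease of the same family, was too low to be tested, at 0.0196, 0.0201 and 0.0137 FPKM in OVER43 and 0.342, 0.425 and 0.438 in EV, 22.6 times higher in EV with no overlap, and was singled out after its values were seen.

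Of the 25 adaptors and effectors 23 were tested, 8 were higher and 5 were lower, with a median of 0.13. Over all tested genes 28.4% were called higher and 17.5% lower, and both counts are near those shares. RASA1, the GTPase activator that switches off RAS, was at 48.2 ± 1.34 FPKM in OVER43 and 25.7 ± 1.03 in EV (fold change 0.88, limma adjusted p = 7.96e-06). PLCG1, the phospholipase recruited by EGFR and MET, was at 64.0 ± 3.35 and 41.2 ± 1.33 FPKM (fold change 0.62, limma adjusted p = 4.65e-05). Among the tested genes of the 4 lists, the fold change farthest from 0 was that of GRB10, an adaptor that binds receptor kinases, at 1.11, 1.23 and 1.36 FPKM in OVER43 and 8.53, 7.76 and 7.70 in EV. This is 6.48 times higher in EV (fold change -2.01, SE 0.0912, limma adjusted p = 3.30e-06). EPS8, an EGFR substrate that acts on actin, was at 5.18 ± 0.80 and 9.16 ± 0.447 FPKM (fold change -0.72, limma adjusted p = 0.000731). The other genes called lower were GAB1, GAB2 and NCK1, docking proteins and an adaptor of these receptors, named here because they complete the 5.

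Genes of receptor turnover and inhibition, the class to which ERRFI1 belongs, were 25, of which 23 were tested, 3 higher and 7 lower, with a median of -0.06. CBLB, a ubiquitin ligase that sends EGFR to degradation, was at 16, 13.8 and 13.5 FPKM in OVER43 and 33.6, 29 and 31.4 in EV, 2.17 times higher in EV. Its fold change was -1.07 (SE 0.0786, limma adjusted p = 3.35e-05), while its relative CBL was at 17.0 ± 0.523 and 17.3 ± 0.631 FPKM and was not called (limma adjusted p = 0.691). LRIG3, a membrane protein of a family that includes the EGFR inhibitor LRIG1, was at 0.272 ± 0.0879 and 1.47 ± 0.0975 FPKM (fold change -0.96, limma adjusted p = 0.000537), and it passed the filter only through the EV libraries, being under 1 FPKM in all of OVER43, so that it was not tested when an EV library was left out. RNF41, the ubiquitin ligase that targets ERBB3, was at 19.1 ± 2.16 and 26.2 ± 1.02 FPKM (fold change -0.44, limma adjusted p = 0.00265). The loci of RNF41 and LRIG3 both lie within 5 Mb of ERBB3 on chromosome 12. RNF41 was singled out after its values were seen.

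Higher in OVER43 among these inhibitors were phosphatases and a SOCS protein. PTPN2, a tyrosine phosphatase that acts on EGFR and MET, was at 28.3 ± 1.26 FPKM in OVER43 and 15.2 ± 2.05 in EV (fold change 0.86, limma adjusted p = 0.000183). SOCS4, which promotes EGFR degradation, was at 24.3 ± 1.64 and 16.8 ± 1.55 FPKM (fold change 0.51, limma adjusted p = 0.00111). Genes of this class were thus called in both directions, with ERRFI1 and CBLB lower and PTPN2 and SOCS4 higher. All tested genes were also called in both directions, but with the opposite split, 28.4% higher and 17.5% lower. Of the 23 tested genes of this list, 3 were higher and 7 lower, a difference that was not tested.

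**Figure D5:**
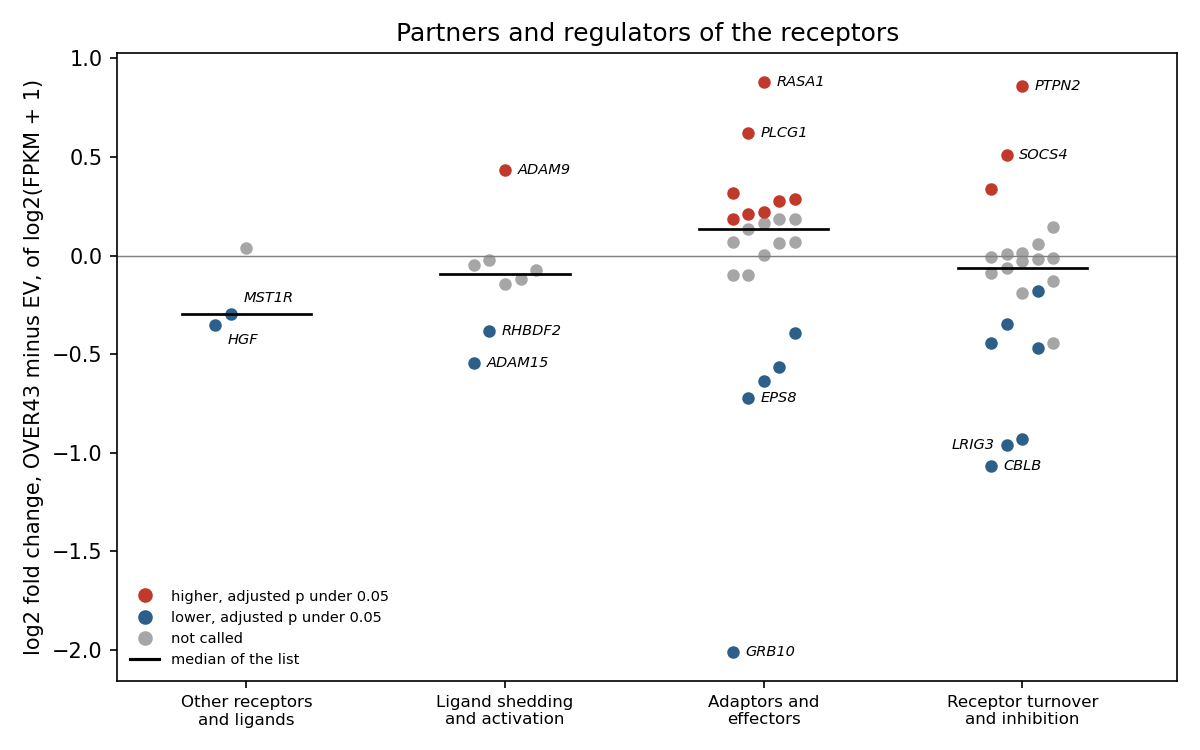
Log2 fold change, OVER43 minus EV, of the 57 tested genes of the 4 lists, 1 point per gene, red where called higher, blue where called lower and grey where not called, with a bar at each list's median. Each list holds genes on both sides of 0, and GRB10 at -2.01 lies farthest from it.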

How the data were processed

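RNA-seq of 6 samples of RKO cells, 3 EV and 3 OVER43, was analysed. The authors made the tables with Cuffdiff, per the submitters' processing notes, from Illumina TruSeq libraries, per the labels' protocols. The sources used here give no Cuffdiff version, aligner or strand setting. The deposited values are FPKM per library and per group for 63563 genes and 251748 isoform entries, scaled between libraries by Cuffdiff. The authors' log2 fold changes, test statistic (a score), p-values and q-values were deposited beside them. Only the q-values are quoted. The notes name hg38, but only 271 of the 52335 genes also found in GENCODE 29 (GRCh38) have a start or end in common with it, so loci are given as hg19, counted from 1. GENCODE 29 gave transcript names and types, and RefSeq's GRCh38.p14 table the promoter windows. A set of 19 genes for which Cuffdiff gave no estimate was left out.

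Values were tested as log2(FPKM + 1) with limma 3.58.1 (R 4.3.3; lmFit, eBayes with trend and robust) over genes, and separately transcripts, that reached 1 FPKM in 3 or more libraries of 6, two-sided, with Benjamini-Hochberg adjustment over all of them. A gene was called at an adjusted p under 0.05. The script was tested on simulated data. Columns were matched to groups by name, since they are numbered 0 to 2 and the labels 1 to 3. Depth, 42.48 to 52.06 M fragments per library, was recovered from whole-gene entries of the lowest values, all within 0.1 of a whole number of fragments. It is the size after Cuffdiff's scaling, which cannot be told apart from the number of fragments sequenced. Floors of 3 fragments cover counting error only. No 2 libraries were alike within sampling noise (chi-square per gene 2.64 to 3.92).

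The members and the 4 lists of partners were chosen with earlier results of these data known. Named were all members, their transcripts with a mean of at least 1 FPKM in a group, in each list up to 2 called genes of the highest and 2 of the lowest fold change, and, for EGFR and MET, the 3 genes of most similar pattern. The whole-gene test (log2(FPKM + 0.01), at least 0.01 FPKM in 3 libraries), the HGF transcripts and the printed promoters were chosen after the data were seen. So were other genes given with values (ADAM17, ADAM19, CBL, RNF41, NRG4) or by name alone (GAB1, GAB2, NCK1). Alternatives were scaling by TMM, by quantiles or to equal sums, a filter at 5 FPKM or none, a pseudocount of 0.1, the column number as a block, and leaving out each library.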

Additional observations from a re-analysis of the deposited data

How the results depend on the processing

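The 3 lower calls (HBEGF, ERBB3 and ERRFI1) held in all 13 alternatives of the gene-level test. The count of members called higher was 0 to 1 on leaving out each library, the 1 being ERBB2 without EV library 0. The scaling moved the whole table: with equal FPKM sums 1870 genes were higher and 3567 lower, against 3462 and 2138, the median of all genes was -0.08 against 0.05, and 26 partner genes were lower against 16. On leaving out each library, 2953 to 3158 genes were higher and 1661 to 1899 lower, 10 to 13 partner genes were higher and 13 to 17 lower.

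Of the members' transcripts, 1 was lower with no filter on low values, against 3, where more entries are tested, and 2 to 3 on leaving out each library, when 0 to 1 were higher. With no filter the limma adjusted p of ERBB3-201 was 0.0523 and that of RHBDF2 was 0.0502, and MST1R stood at 0.130. ERBB3-202 was called with equal sums, at a limma adjusted p of 0.0481. MET-202 turned to -0.030 with TMM, -0.092 with quantile scaling and -0.10 with equal sums, and the MET gene to -0.0029, -0.047 and -0.090. ERBB3-205 passed the filter only through OVER43 libraries 0 and 1 and EV library 1, and was not tested when any of these was left out. On leaving out each of the others, it ranged from -0.53 to 0.17. On leaving out each library, MET-206 ranged from -0.23 to 0.015. Both ERBB3-205 and MET-206 turned without OVER43 library 2. The ERBB2 whole-gene entry ranged from -0.033, without EV library 0, to 0.18. The cause was not tested.

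Columns of the same number did not deviate together: the correlations of their deviations over 12205 genes were 0.0166, -0.0909 and 0.0285. Those of columns of different number ran from -0.0988 to 0.0973. No pairing by column number was detected, but 3 libraries per group cannot exclude it. With that number as a replicate block 3306 genes were higher and 2010 lower, the 3 members stayed lower, ERBB3-201 had a limma adjusted p of 0.0666, and 0 whole-gene entries of members were lower, against 2 without the block and 1 to 2 on leaving out each library. Depth limits the 4 members that were not tested.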
